A study of Mus musculus with 29 samples.

Results

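Notch signalling was followed in mouse hearts during the induction of heart failure (HF) and the recovery from it through 10 genes: the receptors Notch1, Notch2, Notch3 and Notch4, the ligands Dll4, Jag1 and Jag2, and the target genes Hey1, Heyl and Hes1. They were taken by symbol from the deposited expression table, in which 10 of 29,955 genes carry these names. All 10 were among the 12,759 genes whose mean reached 0.5 FPKM, the filter on low values, and none of them was under 0.784 FPKM in any library. FPKM is a level per transcript length and per mapped fragments, so that levels can be compared between genes.

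The animals were mice labelled C57BL6, which the methods give as C57BL/6J, male and 3 months old at the start, and RNA came from heart tissue that the labels describe as whole heart and whole ventricle and the methods as frozen apical portions. For HF, L-NAME, which inhibits nitric oxide synthase, was given in the drinking water at 0.3 mg/ml together with 1% NaCl over 5 weeks, and osmotic pumps released angiotensin II, a vasoconstrictor peptide, at 0.7 mg/kg/day for the last 28 days of them. Recovery mice went through the same protocol and were then left without the agents, and Control mice received none of them. HF had 2 libraries at week 3 and 3 at week 5. Recovery had 2 each at weeks 7, 9 and 13, 3 at week 11 and 5 at week 19, and Control had 5 at week 19. The labels give the recovery weeks as 2, 4, 6, 8 and 14, counted from the end of induction. Control week 19 served as the control of every comparison, 14 weeks further on than HF week 5, so that age and induction cannot be told apart in the HF comparisons. Recovery weeks 7 to 13 were also earlier than this control, so that age and recovery cannot be told apart there either. The methods mention repeated cohorts, but no label ties a library to one.

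Notch receptors sit in the membrane and bind Delta-like and Jagged ligands on neighbouring cells. Binding exposes the receptor to ADAM proteases and then to γ-secretase, and the released intracellular part joins the DNA-binding protein RBPJ and Mastermind coactivators in the nucleus, where genes of the HES and HEY families of transcriptional repressors are switched on. In the heart the pathway is known for its part in vessel sprouting and arterial identity, in valve formation and in endothelial-to-mesenchymal transition. Dll4 and Notch4 are typical of endothelium and Notch3 of the mural cells around vessels.

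Relative depth, read from the steps between low values, lay between 0.723 and 1.39 in 23 libraries, and HF week 3 library 1 showed no such steps. That library also stood apart with 12,816 genes above 0, against 16,339 to 18,091 in the others. The absolute depth is unknown, so the errors given are those between libraries. The atrial myosin light chain Myl7 read 1805 and 5773 FPKM in HF week 3 and 18390, 152.2 and 6.16 FPKM in HF week 5, but at most 3.56 FPKM in every other library. By this marker, 3 libraries that are labelled as ventricle were rich in atrial transcripts. Results of HF week 5 are also given without them, but both libraries of HF week 3 are among the 3, so that no result of that week can be. The myosin gene Myh6 was listed at 0 in all 13 libraries of weeks 5 and 19 and was above 0 in all 11 others. It was the 1 gene at 0 in every library of the first set and above 10 FPKM in every one of the second, and 0 genes showed the reverse. The comparisons of HF week 3 and of Recovery weeks 7 to 13 with control run across that divide, as does the F test over all groups. A lower level in such bulk tissue can mean fewer cells of a type or less RNA per cell, which cannot be told apart.

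In Control week 19 the target Hes1 had the highest level of the 10 genes, 18.8 ± 5.38 FPKM (SD, n = 5), and the receptor Notch2 the lowest, 1.31 ± 0.105 FPKM. Between them came Notch4 with 10.2 ± 1.28 FPKM, Jag2 with 9.36 ± 2.26, Hey1 with 9.07 ± 1.78, Dll4 with 8.97 ± 0.886 and Heyl with 6.39 ± 1.20. Notch1 followed with 4.71 ± 0.385 FPKM, Notch3 with 3.56 ± 0.976 and Jag1 with 2.10 ± 0.310. The libraries of neighbouring genes in this order overlapped, except between Hes1 and Notch4, between Heyl and Notch1 and between Jag1 and Notch2. Among the receptors, Notch4 was thus the most abundant transcript and Notch2 the least, and among the ligands Jag1 was the least.

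**Figure D1:**
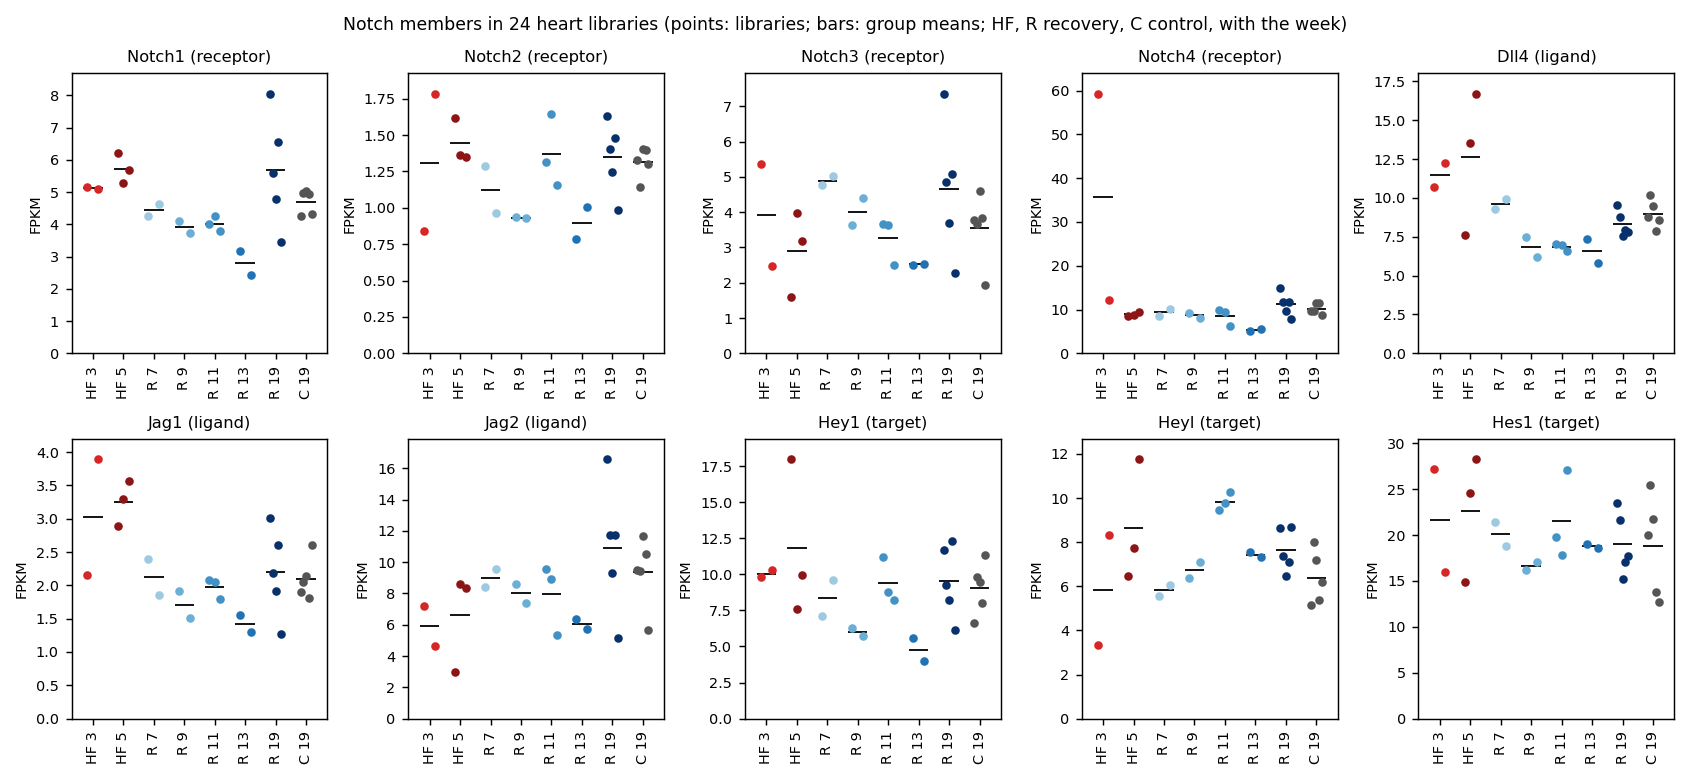
FPKM of the 10 Notch genes (vertical axes, each starting at 0) in the 24 libraries, grouped along the horizontal axis by condition and week (HF, R for Recovery, C for Control). Points are libraries and horizontal bars group means. Jag1 in the 3 HF week 5 libraries lies between 2.89 and 3.57 FPKM, above the 5 controls, and Notch4 stands at 59.2 FPKM in 1 library of HF week 3.

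The first question was which of these genes differed at the end of induction. In HF week 5 against Control week 19, 1 member passed an adjusted p under 0.05: the ligand Jag1 was higher. No member was called lower. Of all genes tested, 11.6% were called higher and 12.4% lower, so that 1 of 10 is near the background of this comparison. The median log2 fold change of the members was 0.26, against 0.04 over all genes tested, with 7 members above 0 and 3 below. At an unadjusted p under 0.05, 2 members passed, Jag1 and Dll4, while 36.5% of all genes did. Without the 3 libraries with over 1000 FPKM of Myl7, an alternative chosen after seeing the data that leaves 2 HF libraries, 3 members were called higher, Dll4, Jag1 and Heyl, and 9.22% of all genes.

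Jag1, the Jagged ligand that is needed for vascular smooth muscle and valve formation, read 2.89, 3.29 and 3.57 FPKM in HF week 5 and 1.89, 2.05, 2.15, 1.82 and 2.61 FPKM in Control week 19. Each HF library was above each control. The log2 fold change was 0.53 ± 0.190 (SE), with an adjusted p of 0.0482 in limma. This call stood close to the threshold. It was kept in 5 of 24 fits that each left out 1 library, with adjusted p-values from 0.0214 to 0.146, and the fold change stayed between 0.47 and 0.60. The 5 left out HF week 3 library 1 or 2, Recovery week 19 library 1 or 5, or Control library 5. Without HF library 1 it was 0.60 with an adjusted p of 0.0864, and over all alternatives the adjusted p ran from 0.0130 to 0.334. In Recovery week 19 Jag1 read 3.02, 2.18, 1.92, 2.60 and 1.27 FPKM, and its log2 fold change from HF week 5 was -0.51 ± 0.190 with an adjusted p of 0.0575.

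Dll4, the Delta-like ligand of endothelial tip cells and arteries, read 7.61, 13.5 and 16.7 FPKM in HF week 5 and 8.76, 10.2, 9.48, 7.87 and 8.56 FPKM in Control week 19. HF library 1, the one with 18390 FPKM of Myl7, was below all controls and the other two were above them. The log2 fold change of 0.41 ± 0.168 had an adjusted p of 0.0851. Without that library it was 0.72 with an adjusted p of 0.00197. Without HF library 2 it was 0.32 (adjusted p = 0.2395) and without HF library 3 it was 0.18 (adjusted p = 0.488). Over all alternatives the adjusted p ran from 0.000791 to 0.7096. Recovery week 19 gave 9.54, 8.77, 7.53, 7.96 and 7.82 FPKM, close together and around the controls. The antisense gene Gm14207 overlaps Dll4 and has a row of its own, and with no strand of the libraries stated, reads of the pair cannot be told apart.

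In Recovery week 19 against HF week 5, Dll4 was the 1 member called. It fell by 0.51 ± 0.168 on the log2 scale (adjusted p = 0.0331), and the call was kept in 19 of 24 fits with 1 library left out. It was lost without HF library 2 (-0.42, adjusted p = 0.122), without HF library 3 (-0.28, 0.249) and without Recovery week 19 library 3, 4 or 5 (-0.48, -0.49 and -0.49, with 0.0675, 0.0606 and 0.0523), and without HF library 1 the value was -0.82. Relative to endothelial markers it was -0.25 with an adjusted p of 0.293, the highest over all alternatives, and the lowest was 0.000320. Of all genes tested, 12.0% were called lower and 12.3% higher, and no member was called higher. Since both comparisons share the HF week 5 libraries, their values for Dll4 and Jag1 are not independent of each other. At an unadjusted p under 0.05, 3 members passed, Dll4, Jag1 and Jag2, and 36.8% of all genes. The members' median log2 fold change was -0.10, against -0.04 over all genes. Without the 3 libraries rich in Myl7, 2 members were called lower, Dll4 and Jag1, and 10.6% of all genes.

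Jag2, the other Jagged ligand, had the opposite sign. It read 2.99, 8.60 and 8.33 FPKM in HF week 5, 9.49, 9.44, 11.7, 10.5 and 5.68 FPKM in Control week 19, and 16.6, 11.7, 9.33, 11.7 and 5.13 FPKM in Recovery week 19. The 3 groups overlapped, with HF library 1 lowest of all. Its log2 fold change was -0.56 ± 0.328 in HF week 5 against control (adjusted p = 0.232) and 0.71 ± 0.328 in Recovery week 19 against HF week 5 (adjusted p = 0.121). Without HF library 1 these values were -0.10 and 0.26, so that most of the size rested on that library.

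The ligands were also set against the endothelium, where Dll4 and Jag1 are known to be expressed. Relative to 10 endothelial markers in the same library (among them Pecam1, Cdh5, Kdr and Tek), Jag1 stood 0.22 above control in HF week 5 (adjusted p = 0.334) and Dll4 0.09 (adjusted p = 0.7096), while Jag2 stood lower by a log2 value of -0.87 (adjusted p = 0.0474). This scaling moves all genes of a library by the same log2 amount, and the share of all genes called under it is not given. Unscaled, Jag2 stood at -0.56 with an adjusted p of 0.232, and at -0.10 without HF library 1. The summed level of these markers was 370 to 573 FPKM in HF week 5, 319 to 378 in Control week 19 and 325 to 364 in Recovery week 19. In HF week 5 against control, 4 of 10 endothelial markers were called higher, 5 of 9 mural markers higher and 1 lower, 6 of 8 fibroblast markers higher, and 4 of 4 atrial genes higher. Of all genes, 11.6% were called higher and 12.4% lower. The atrial genes include Nppa: the lowest atrial sum in HF week 5 was 2229 FPKM with it and 15.5 FPKM without it. In control these sums reached 349.3 and 8.515 FPKM. None of the endothelial, mural or fibroblast markers was listed at 0 in any library. From HF week 5 to Recovery week 19, 3 of 10 endothelial markers, 6 of 9 mural markers, 3 of 8 fibroblast markers and 4 of 4 atrial genes were called lower, and 2 mural markers higher. Relative to the endothelial markers, Jag1 then differed by -0.25 (adjusted p = 0.282) and Jag2 by 0.97 (adjusted p = 0.0314). The part of these cell types in the ligands' values was not tested.

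The promoters of the pair that was called in one or the other comparison are shown for their sequence context. They are RefSeq windows of GRCm38.p6 from 250 bases before to 50 bases after the start of the gene, written 5′ to 3′ on the strand of the gene, with CG dinucleotides in capitals. Dll4 lies at chr2:119325534-119325833 on the plus strand and Jag1 at chr2:137116471-137116770 on the minus strand. The windows hold 17 and 22 CG dinucleotides, against a median of 7 over 32,851 promoters of the same length.
Dll4: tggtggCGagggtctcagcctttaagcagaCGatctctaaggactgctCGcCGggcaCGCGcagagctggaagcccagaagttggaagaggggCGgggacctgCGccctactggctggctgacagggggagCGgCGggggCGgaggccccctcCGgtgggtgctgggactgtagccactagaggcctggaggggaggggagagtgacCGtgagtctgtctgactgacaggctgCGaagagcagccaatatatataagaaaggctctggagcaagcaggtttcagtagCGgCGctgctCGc
Jag1: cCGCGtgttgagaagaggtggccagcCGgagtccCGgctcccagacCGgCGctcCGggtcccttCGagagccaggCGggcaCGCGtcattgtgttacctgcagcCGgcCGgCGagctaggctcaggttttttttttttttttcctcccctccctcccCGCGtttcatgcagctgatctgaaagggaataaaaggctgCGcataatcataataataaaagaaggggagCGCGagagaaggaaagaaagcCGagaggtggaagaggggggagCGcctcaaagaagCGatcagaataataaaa

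RefSeq windows were matched for 7 of the 10 members: the receptors and the ligands. They were searched on both strands for 3 motifs: TGGGAA, the core to which RBPJ binds, and CACGTG and CACGAG, an E-box and an N-box of the kind bound by HEY and HES proteins. TGGGAA was in none of the 7, against 25.6% of all promoters, and CACGTG in none, against 7.15%. CACGAG was in 1, Notch3, at position -204 from the start, against 6.47%. The motifs do not overlap each other, and a match or its absence says only which letters are in these windows.

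Among the receptors none was called in HF week 5. Notch1, which is expressed widely in endothelium, read 6.22, 5.27 and 5.69 FPKM in HF week 5 and 4.26, 4.97, 5.04, 4.96 and 4.33 FPKM in Control week 19. The HF libraries were all above the controls, but by a log2 fold change of 0.26 ± 0.169 with an adjusted p of 0.283, and relative to the endothelial markers it was -0.06. With Jag1, this made 2 of 10 members whose HF libraries lay above every control, against 14.8% of all genes. Recovery week 19 was spread from 3.45 to 8.05 FPKM and overlapped both groups, with a log2 fold change from HF week 5 of -0.05 ± 0.169 that turned above 0 under 4 scalings.

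Notch3, the receptor of smooth muscle cells and pericytes, read 1.60, 3.97 and 3.18 FPKM in HF week 5 against 3.79, 3.66, 4.60, 3.83 and 1.95 FPKM in control. HF library 1 was again the lowest, and the groups overlapped. The log2 fold change of -0.28 ± 0.303 (adjusted p = 0.538) became 0.04 without that library. Recovery week 19, at 7.35, 4.86, 3.70, 5.10 and 2.28 FPKM, differed from HF week 5 by 0.58 ± 0.303 (adjusted p = 0.171). With 1 library left out this difference ran from 0.27 to 0.81 and was called in 1 of 24 fits. Notch4, at 8.61, 8.84 and 9.40 FPKM in HF week 5 and 8.66 to 11.6 FPKM in control, had a log2 fold change of -0.17 ± 0.308 (adjusted p = 0.723). Notch2 read 1.35 to 1.62 FPKM in HF week 5 and 1.14 to 1.404 FPKM in control, and its log2 fold change of 0.10 ± 0.160 (adjusted p = 0.694) was below 0 under quantile normalization and relative to the endothelial markers.

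None of the target genes was called in HF week 5 against control or in Recovery week 19 against HF week 5. Hey1, a repressor induced by Notch in arterial endothelium and in the atrioventricular canal, read 18.0, 7.57 and 9.93 FPKM in HF week 5 and 6.64, 9.84, 9.50, 8.04 and 11.3 FPKM in control. The library with 18.0 FPKM is the one richest in atrial transcripts, and the other two lay among the controls. With it the log2 fold change was 0.30 ± 0.239 (adjusted p = 0.391), and without it -0.04. Heyl, typical of mural cells, read 6.45, 7.73 and 11.8 FPKM in HF week 5 and 5.16 to 8.01 FPKM in control, a log2 fold change of 0.38 ± 0.210 (adjusted p = 0.198). Without the 3 libraries rich in Myl7 it was 0.56 with an adjusted p of 0.0218, and over all alternatives the adjusted p ran from there to 0.815. Hes1, which many pathways besides Notch induce, read 14.9, 24.6 and 28.3 FPKM in HF week 5 and 12.8 to 25.5 FPKM in control, a log2 fold change of 0.26 ± 0.235 (adjusted p = 0.449). With 1 library left out it ran from 0.079 to 0.53. From HF week 5 to Recovery week 19 the log2 fold changes were -0.25 ± 0.239 for Hey1, -0.13 ± 0.210 for Heyl and -0.21 ± 0.235 for Hes1. That of Hes1 ran from -0.48 to -0.029 with 1 library left out. Relative to the endothelial markers the sign of Hey1 and Hes1 turned in both comparisons and that of Heyl in the second.

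**Figure D2:**
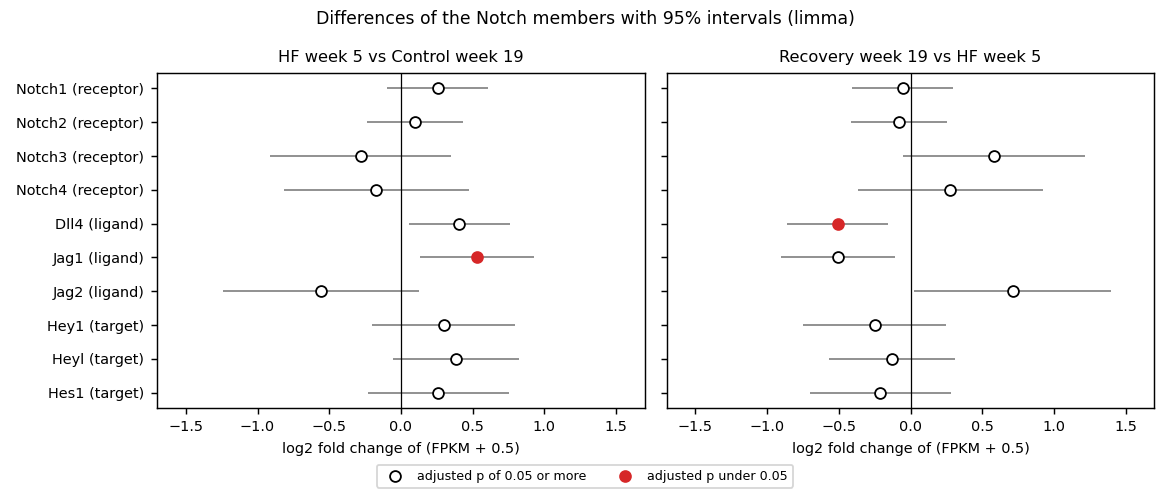
Log2 fold changes of (FPKM + 0.5) with 95% intervals from limma for the 10 Notch genes in HF week 5 against Control week 19 (left) and Recovery week 19 against HF week 5 (right). Filled points have an adjusted p under 0.05: Jag1 at 0.53 on the left and Dll4 at -0.51 on the right, and the intervals of the other genes but Dll4 on the left and Jag1 and Jag2 on the right include 0.

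The next question was whether the hearts of Recovery week 19 differed from controls of the same week. No member was called in limma, and none had an unadjusted p under 0.05. Over all genes 3 were called, 0.0235%, and 2.88% had an unadjusted p under 0.05. The log2 fold changes of the members ran from -0.10 ± 0.146 for Dll4 to 0.30 ± 0.262 for Notch3. For Jag1 the difference was 0.02 with a 95% interval from -0.32 to 0.37, and for Dll4 the interval was -0.41 to 0.20. The intervals of Notch3, -0.25 to 0.85, and of Jag2, -0.44 to 0.75, were wider.

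The spread among the 5 libraries of Recovery week 19 was wide and shared by many members. Library 1 had the highest value of the group for 8 of 10 members and library 5 the lowest for 7 of 10. Notch1 went from 8.05 FPKM in the former to 3.45 in the latter, Notch3 from 7.35 to 2.28, and Jag2 from 16.6 to 5.13. In the same libraries the deviation of all genes from their means followed transcript length with a Spearman correlation of 0.400 in library 1 and -0.350 in library 5, across genes, which are not independent replicates. In Control week 19 no library held more than 4 highest or 4 lowest values. The part of transcript length in these members was not tested.

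**Figure D3:**
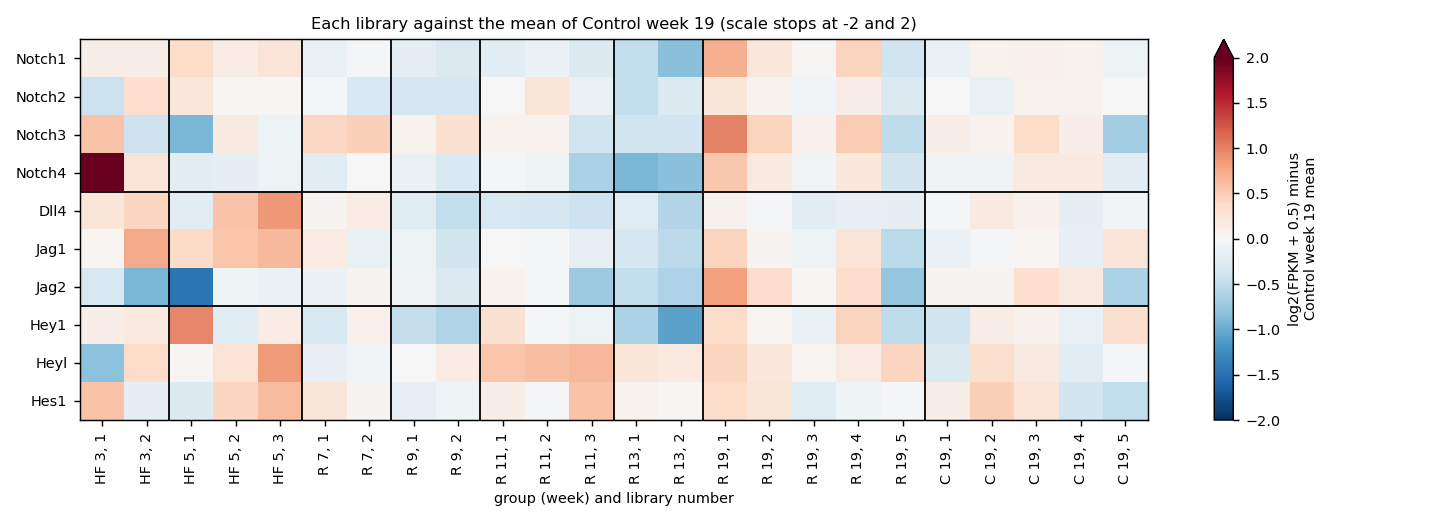
Difference of log2(FPKM + 0.5) from the Control week 19 mean, by colour, for the 10 Notch genes (rows) in each of the 24 libraries (columns, grouped by condition and week). Red is above and blue below control, and the scale ends at -2 and 2. Recovery week 19 library 1 is red and library 5 mostly blue, and both Recovery week 13 libraries are blue for the receptors and ligands.

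During induction, at HF week 3, where both libraries were rich in Myl7, 1 member was called against Control week 19: Notch4 was higher, with a log2 fold change of 1.37 ± 0.353 and an adjusted p of 0.00345. Of all genes, 23.1% were called higher and 27.6% lower in this comparison. The 2 libraries read 59.2 and 12.2 FPKM, against 9.64, 9.59, 11.5, 11.6 and 8.66 FPKM in control. The higher value came from library 1, the one that stood apart in the number of genes detected, and without it the log2 fold change was 0.26 with an adjusted p of 0.460. Without library 2 it was 2.49, and over all alternatives the adjusted p ran from 1.18e-07 to 0.460. In the same comparison 6 of 10 endothelial markers were called higher and 1 lower, 4 of 9 mural markers higher and 1 lower, 6 of 8 fibroblast markers higher, 3 of 4 atrial genes higher and 1 lower, and 4 of 8 cardiomyocyte markers lower and 1 higher, and their part in the members' values was not tested. The atrial sums of HF week 3 were the same with and without Nppa, which was listed at 0 in 2 of 24 libraries. The lower atrial call thus rests on values listed at 0. Myh6, a cardiomyocyte marker, was listed at 0 in every control, so that a higher call of it rests on that listing. Dll4 read 10.7 and 12.2 FPKM, both above the controls, with a log2 fold change of 0.34 ± 0.193 (adjusted p = 0.146), and Jag1 read 2.15 and 3.89 FPKM with 0.40 ± 0.218 (adjusted p = 0.132). With 1 library left out, the value of Jag1 ran from 0.035 to 0.76. Relative to the endothelial markers, whose summed level was 627 and 660 FPKM here, Dll4 and Jag1 were at -0.11 and -0.06. Jag2 read 7.20 and 4.63 FPKM, a log2 fold change of -0.61 ± 0.376 (adjusted p = 0.178), which was -1.07 with an adjusted p of 0.0192 relative to the endothelial markers. Its unscaled value ran from -0.91 to -0.32 with 1 library left out.

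In early recovery limma called none of the members. At Recovery week 7 and at Recovery week 9 none had an unadjusted p under 0.05 either, as 3.61% and 3.60% of all genes did, and of all genes 0.0470% and 0.0549% were called. Dll4, which stood at 12.6 ± 4.61 FPKM (n = 3) in HF week 5, read 9.28 and 9.94 FPKM at week 7, among the controls, and 7.46 and 6.19 FPKM at week 9, below them. At week 9 both libraries lay below every control in 4 of 10 members, against 7.87% of all genes: Dll4 (log2 fold change -0.37 ± 0.193), Notch1 (-0.24 ± 0.193), Notch2 (-0.34 ± 0.184) and Hey1 (-0.54 ± 0.273), each with an adjusted p of 1. Jag1 read 2.39 and 1.86 FPKM at week 7 and 1.92 and 1.503 FPKM at week 9.

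At Recovery week 11, 0 of 10 members and 0.149% of all genes were called in limma. Heyl read 9.46, 9.78 and 10.3 FPKM, above each of the 5 controls (5.16, 8.01, 7.19, 5.40 and 6.22 FPKM). The log2 fold change was 0.60 ± 0.210 with an adjusted p of 0.344, and it stayed between 0.52 and 0.68 under every alternative. Leaving out the 3 libraries with over 1000 FPKM of Myl7 gave an adjusted p of 0.0430, the lowest over all alternatives, and the highest was 1. Those 3 libraries belong to neither group, so that fit kept the fold change and altered only the estimate of the spread between libraries. Dll4 read 7.02, 6.98 and 6.57 FPKM, below each control, with -0.36 ± 0.168 and an adjusted p of 0.576. These 2 were the members with an unadjusted p under 0.05, and 8.45% of all genes had one.

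Recovery week 13 held the lowest group means of Notch1, Notch2, Notch3, Notch4, Dll4, Jag1 and Hey1. In 6 of 10 members (Notch1, Notch2, Notch4, Dll4, Jag1 and Hey1) both libraries lay below every control, which was so for 13.6% of all genes, while 0 members and 0.0784% of all genes were called. Of the members, 5 had an unadjusted p under 0.05, and of all genes 10.4%. Notch1 read 3.19 and 2.42 FPKM, a log2 fold change from control of -0.66 ± 0.193 (adjusted p = 0.242). Hey1 read 5.57 and 4.00 FPKM, which is -0.85 ± 0.273 (adjusted p = 0.293). Notch4 read 5.16 and 5.46 FPKM, which is -0.87 ± 0.353 (adjusted p = 0.406).

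The other 3 genes of that set were closer to control: Dll4 at 7.39 and 5.81 FPKM differed by -0.42 ± 0.193 (adjusted p = 0.461), Jag1 at 1.56 and 1.30 FPKM by -0.43 ± 0.218 (adjusted p = 0.5004) and Notch2 at 0.784 and 1.00 FPKM by -0.38 ± 0.184 (adjusted p = 0.479). With 1 library left out, Dll4 ran from -0.58 to -0.26, Jag1 from -0.53 to -0.33 and Notch2 from -0.50 to -0.27. Hes1 and Heyl were not in that set of 6, with 19.01 and 18.6 FPKM for the former and 7.54 and 7.33 FPKM for the latter. Both libraries had a negative trend of all genes on transcript length, with Spearman correlations of -0.321 and -0.322 across genes. When trends on length and GC content were removed, Notch1 stood at -0.53, Notch4 at -0.64, Hey1 at -0.82, Dll4 at -0.32, Jag1 at -0.28 and Notch2 at -0.16. All 6 stayed below control in that fit, and their adjusted p-values ran from 0.275 to 0.783.

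Over all 8 groups at once, limma's F test called 4 members: Dll4 (adjusted p = 0.0122), Notch4 (0.0139), Notch1 (0.0210) and Jag1 (0.0415). This compares with 38.6% of all genes. With 1 library left out the count ran from 2, without Recovery week 13 library 2, to 7, without HF week 3 library 2. Dll4 and Notch4 were called in each of these fits, Notch4 with an adjusted p of 0.0172 without HF week 3 library 1. Only 1 member was called when levels were taken relative to the endothelial markers or to the total without the 50 highest genes. For Notch4 the highest group was HF week 3, with 59.2 and 12.2 FPKM. For Dll4 and Jag1 the highest group was HF week 5, with 12.6 ± 4.61 and 3.25 ± 0.344 FPKM (n = 3), and the lowest Recovery week 13, with 6.60 ± 1.11 and 1.43 ± 0.183 FPKM (n = 2). Notch1 ran from 5.73 ± 0.474 FPKM in HF week 5 to 2.80 ± 0.538 FPKM in Recovery week 13. Hey1 had an adjusted p of 0.0564, and Notch2, Notch3, Jag2, Heyl and Hes1 ones from 0.123 to 0.886.

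How the members varied together was then described over all 24 libraries, on the log2(FPKM + 0.5) scale and for 45 pairs. The pair with the highest Pearson's r was a receptor and a ligand, Notch3 and Jag2, with an r of 0.873 and Spearman's rho of 0.754, while the highest rho, 0.809, was that of Notch1 and Jag1. Permutation p-values of Notch3 and Jag2 were 1e-05 for r, the smallest that 100000 permutations can give, and 7e-05 for rho, or 0.000225 and 0.00105 after adjustment over the pairs. The permutations exchange libraries across groups. For this pair and those below they take no account of group differences or of the libraries' length and GC trends. Without the 2 libraries farthest from the median of Notch3, r was 0.787. It was 0.965 within the 13 libraries of weeks 5 and 19 and 0.727 within the 11 others, and 0.942 for deviations from the group means. The tie thus held inside the groups and was not only one between them.

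There were 3 more pairs with an r over 0.7. Notch1 and Hey1 had an r of 0.791 (rho 0.741), Notch1 and Jag1 of 0.742 (rho 0.809) and Dll4 and Jag1 of 0.739 (rho 0.679), with permutation p-values for r of 1e-05, 4e-05 and 5e-05 and adjusted ones of 0.000225, 0.000562 and 0.000562. Without the 2 farthest libraries they were 0.730, 0.696 and 0.629. Within the 13 libraries of weeks 5 and 19 they were 0.686, 0.704 and 0.638, and within the 11 others 0.841, 0.760 and 0.800. Deviations from the group means gave 0.683, 0.649 and 0.428, so that the tie of Dll4 and Jag1 lay more between the groups than that of the others.

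**Figure D4:**
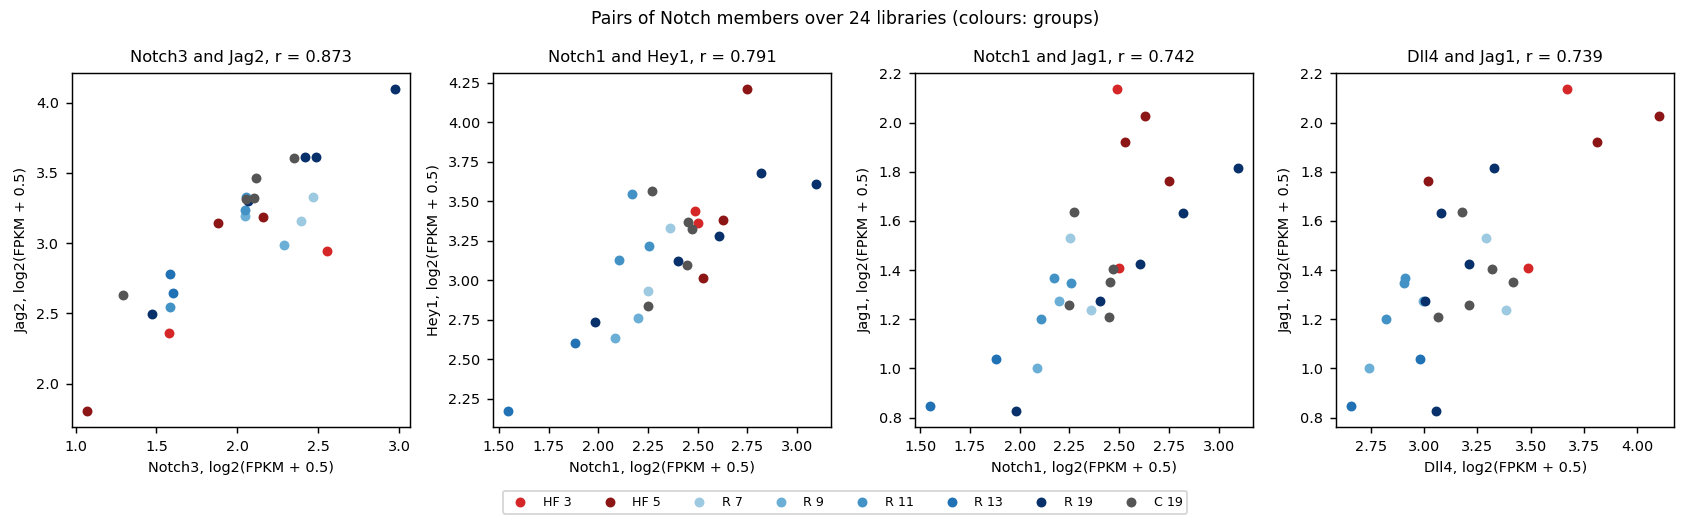
Levels of 4 pairs of Notch genes as log2(FPKM + 0.5) in the 24 libraries, coloured by condition and week, with Pearson's r above each plot. Notch3 and Jag2 follow each other from HF week 5 library 1 at the lower left to Recovery week 19 library 1 at the upper right, whereas in Dll4 and Jag1 HF week 5 libraries 2 and 3 and HF week 3 library 2 lie at the upper right.

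Notch3 and Jag2 share a property of sequence. The median GC content of their transcripts, 60.3% and 61.9%, was at the 94.96 and 97.5 percentile of the genes tested, and that of Notch4, 61.2%, at the 96.8 percentile. Jag1 had 48.8% (35.1 percentile) and Dll4 55.9% (75.6 percentile). In Control week 19 the lowest values of Notch3, Notch4, Jag2 and Hes1 (50.7% GC, 45.8 percentile) were in library 5, whose genes deviated with GC content at a Spearman correlation of -0.429, the most negative of all libraries. HF week 5 library 1, the lowest of all for Notch3 and Jag2, had a correlation of -0.0690 with GC content, and the part of GC content in this pair was not tested. Their RefSeq promoters, on chr12:112929446-112929745 (Jag2) and chr17:32166841-32167140 (Notch3), both on the minus strand, are shown because the genes move together, with CG dinucleotides in capitals. Jag2 holds 63 CG dinucleotides and 86.0% GC, and Notch3 holds 25 and 70.0%, against medians of 7 and 52.7% over all promoters.
Jag2: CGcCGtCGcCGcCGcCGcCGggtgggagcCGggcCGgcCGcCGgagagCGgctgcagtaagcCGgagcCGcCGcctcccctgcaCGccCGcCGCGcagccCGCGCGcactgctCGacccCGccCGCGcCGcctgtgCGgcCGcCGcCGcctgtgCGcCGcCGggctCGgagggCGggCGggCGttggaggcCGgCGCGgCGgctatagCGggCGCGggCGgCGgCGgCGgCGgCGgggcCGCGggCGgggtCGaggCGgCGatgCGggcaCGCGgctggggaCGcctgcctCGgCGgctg
Notch3: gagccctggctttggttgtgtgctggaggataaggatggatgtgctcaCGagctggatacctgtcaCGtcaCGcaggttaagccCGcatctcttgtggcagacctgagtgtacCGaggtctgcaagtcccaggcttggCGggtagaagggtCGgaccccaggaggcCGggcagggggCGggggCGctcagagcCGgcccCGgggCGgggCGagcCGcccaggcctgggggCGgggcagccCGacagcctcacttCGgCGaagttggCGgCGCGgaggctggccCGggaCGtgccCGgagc

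Genes outside the 10 with the most similar pattern over the 24 libraries are named as a description, by Pearson's r on the same scale. For Jag1 they were Ep400 (0.875), Ncoa3 (0.866) and Dusp11 (0.863), and for Dll4 Tspan15 (0.837), Dchs1 (0.832) and Gtf3c5 (0.806). For Jag2 they were Snrk (0.937), Sh3d20 (0.914) and Pdgfb (0.903), and Snrk (0.885) also came second for Notch3, after Tnks1bp1 (0.898). For Notch1 they were Zfp598 (0.860), Ddx17 (0.845) and Shank3 (0.844), and for Notch4 Tmem184b (0.966), Slc4a2 (0.948) and Klc1 (0.942), which were 0.903, 0.873 and 0.793 without HF week 3 library 1, the library where Notch4 was highest. Hes1 had the loosest neighbours, with Traf3ip1 (0.676) first. Those of Hey1 were led by Arhgap31 (0.841), those of Heyl by Tbxa2r (0.793, but 0.648 without HF week 3 library 1, where Heyl was lowest) and those of Notch2 by Faf2 (0.842). The libraries share depth and length trends, and such values carry no test.

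The rest of the pathway was read from a list of 50 other genes, of which 40 passed the filter on low values. In HF week 5 against control, 5 of 40 were called higher and 3 lower, beside 11.6% and 12.4% of all genes, and 32 were not called. In receptor cleavage, 3 of 9 tested genes were called. Adam10, the protease that makes the first cut after ligand binding, read 8.38, 6.30 and 8.07 FPKM in HF week 5 and 6.18, 5.54, 4.58, 5.11 and 6.94 FPKM in control, a log2 fold change of 0.39 ± 0.131 (adjusted p = 0.0350). Psen2, a catalytic subunit of γ-secretase, read 29.0, 15.2 and 19.3 FPKM against 12.4 to 14.0 FPKM, which is 0.63 ± 0.203 (adjusted p = 0.0308). Furin, the convertase that cuts the receptor on its way to the membrane, was lower at 15.5, 14.1 and 12.8 FPKM against 14.8 to 28.6 FPKM, which is -0.65 ± 0.177 (adjusted p = 0.0125).

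Elsewhere in the pathway the calls were spread over its steps. Maml2, a Mastermind coactivator, was higher by 0.68 ± 0.154 (adjusted p = 0.00389), Dtx4, a Deltex ubiquitin ligase, by 0.90 ± 0.215 (adjusted p = 0.00566) and Efnb2, an arterial ephrin ligand and Notch target, by 0.65 ± 0.150 (adjusted p = 0.00461). In these 3 genes and Psen2 each HF library was above each control, against 14.8% of all genes, and in Hes6 below each control, against 14.7%. Lfng, a Fringe glycosyltransferase that alters which ligand a receptor answers to, was lower by -0.52 ± 0.172 (adjusted p = 0.0356), with overlap of the groups. Hes6, an inhibitor of Hes1, was lower by -0.40 ± 0.133 (adjusted p = 0.0344), with 14.1, 19.3 and 19.7 FPKM against 19.9 to 28.6 FPKM. Without HF library 1, 3 of the 8 calls held, those of Furin, Maml2 and Efnb2. Without the 3 libraries rich in Myl7 that of Dtx4 held too, at 0.75, while Adam10 was at 0.32 (adjusted p = 0.115), Psen2 at 0.38 (0.0746), Lfng at -0.28 (0.228) and Hes6 at -0.25 (0.194). Without HF library 3, 5 of the 8 held, and Furin, Adam10 and Psen2 were not called. With only the groups compared in the fit 5 held as well, without Lfng, Adam10 and Hes6. Without 1 control library, between 4 and 7 of the 8 held. Relative to the endothelial markers, a scaling that moves all genes of a library alike, 1 was called higher and 8 lower. Adam10, Psen2, Maml2 and Efnb2 were not called, and Neurl1a, Adam17, Ncstn, Aph1a and Fbxw7 were. The share of all genes called under this scaling is not given, so these counts cannot be set against a background. Under the total without the 50 highest genes 2 were higher and 4 lower, without Adam10, Psen2 and Efnb2 among them. Neurl1a, a ubiquitin ligase for Notch ligands, missed the threshold at -0.52 ± 0.187 (adjusted p = 0.05002) and was called lower under 12 of 37 alternatives, among them -0.51 with an adjusted p of 0.0232 without the 3 libraries rich in Myl7. The other 3 genes of ligand ubiquitination, the 4 corepressors tested and Rbpj were not called.

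From HF week 5 to Recovery week 19, 4 of 40 were called lower and 2 higher, beside 12.0% and 12.3% of all genes. Relative to the endothelial markers 0 were lower and 8 higher, and under the total without the 50 highest genes 1 was lower and 3 higher. The former scaling moves all genes of a library alike, and the share of all genes called under it is not given, here or for HF week 3. Adam10 fell by 0.48 ± 0.131 (adjusted p = 0.0117), Psen2 by 0.72 ± 0.203 (0.0148), Maml2 by 0.56 ± 0.154 (0.0124) and Efnb2 by 0.64 ± 0.150 (0.00456). Furin rose by 0.71 ± 0.177 (0.00732) and Hes6 by 0.47 ± 0.133 (0.0148). These 6 genes had also been called against control, with the other sign, in a comparison that shares the HF libraries. Without HF library 1, the calls of Furin and Efnb2 held, and without the 3 libraries rich in Myl7 those of Furin, Adam10, Psen2 and Efnb2. In Recovery week 19 against Control week 19, limma called 0 of 40, as in Recovery weeks 7, 9, 11 and 13, and at an unadjusted p under 0.05 there were 2, 0, 0, 6 and 7, beside 2.88%, 3.61%, 3.60%, 8.45% and 10.4% of all genes. The 6 of week 11 became 3 without Recovery week 11 library 3, and the 7 of week 13 became 3 without Control library 4. At HF week 3, 12 of 40 were called higher and 7 lower, beside 23.1% and 27.6% of all genes, Adam10, Psen2, Maml2, Dtx4 and Efnb2 among the former and Furin and Hes6 among the latter. Without library 1 of that week 10 were higher and 1 lower, and Furin and Hes6 were not called. Without library 2 these counts were 11 and 12, relative to the endothelial markers 4 and 17, and with only the groups compared in the fit 9 and 1.

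**Figure D5:**
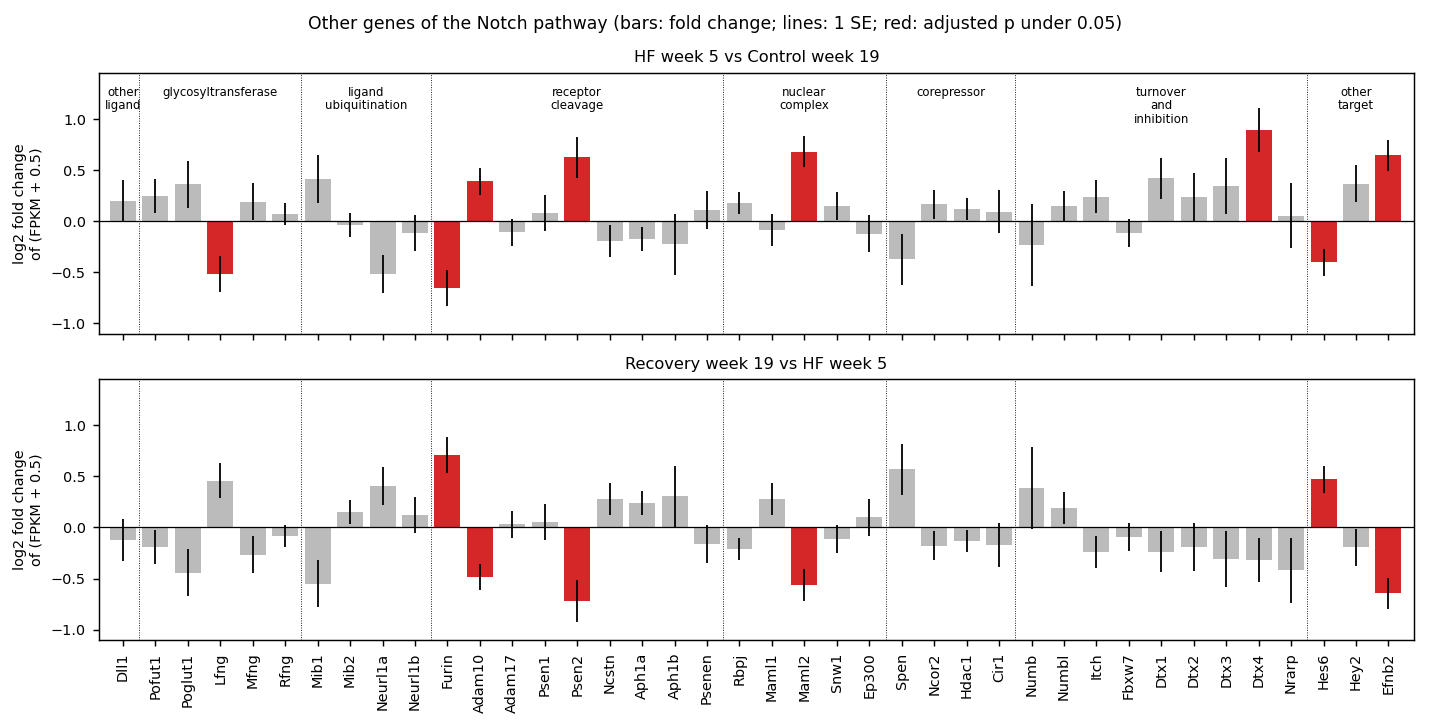
Log2 fold changes of (FPKM + 0.5) with 1 SE for the 40 other genes of the Notch pathway that were tested, ordered by their step in the pathway, in HF week 5 against Control week 19 (top) and Recovery week 19 against HF week 5 (bottom). Red bars have an adjusted p under 0.05, 8 at the top and 6 at the bottom, and those 6 have the opposite sign at the top.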

How the data were processed

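Paired-end libraries were made from polyadenylated RNA of mouse hearts. TopHat alignment to MGSCv37 and Cuffdiff gave the FPKM values that the authors deposited (the submitters' processing notes name TopHat2, Cuffdiff and mm9), with 1 column per library and 29,955 genes by symbol. Annotation, strand and scaling between libraries are not given in the sources used here. FPKM hides absolute depth, and its per-length scaling carries length and GC trends of a library into every gene.

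The week in a column's name gave its group, and columns bear library numbers that no label repeats. The 5 columns named for Control week 5 were not used, since only 4 such samples are labelled. Recovery week 9 has 2 columns and 3 labelled samples. No source ties libraries to cohorts, so p-values measure the spread between libraries. No 2 libraries were identical.

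Values were taken as log2(FPKM + 0.5) for 12,759 genes whose mean was 0.5 FPKM or more. The model was fitted in limma 3.58.1 under R 4.3.3 (8 group means, 16 residual degrees of freedom, eBayes with trend, two-sided). A gene was called at a Benjamini-Hochberg adjusted p under 0.05 over all genes tested. Fold changes are on the log2(FPKM + 0.5) scale, which understates changes of low genes. Correlations have 100000 permutations. The 10 members, the 50 other pathway genes and the marker lists were chosen with earlier results of these data known. Named were all members, the other pathway genes called in HF week 5 against control or Recovery week 19 against HF week 5, and for each member up to 3 genes of highest r.

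Transcript GC content and length came from GENCODE transcripts of GRCm38 for 10,552 genes (82.7% of those tested), promoters from RefSeq. The exons of Notch1, Notch2 and Notch3 overlap those of genes without a row in the table. Tested on simulated data of 12,759 genes for HF week 5 against control, the fit recovered 76% of 100 genes with a log2 change of 1 and 94% of 100 with one of 2. The genes were drawn independently and no smaller change was simulated, while the members' log2 fold changes in this comparison were at most 0.56 in size. Alternatives were pseudocounts of 0.1 and 1, no filter or a mean of at least 1 FPKM, 3 further scalings, values relative to endothelial markers, robust eBayes, unadjusted p-values, only the groups compared, and each library left out. Removal of GC and length trends by loess (span 0.3), leaving out HF week 3 and leaving out 3 libraries with over 1000 FPKM of Myl7 were added after seeing the data. Drawing used Python 3.11.15, numpy 2.4.6, pandas 2.3.3, scipy 1.17.1 and matplotlib 3.10.9.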

Additional observations from a re-analysis of the deposited data

How the results depend on the processing

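FPKM give no absolute depth, and groups hold 2 to 5 libraries. No paired analysis was possible because the labels mark replicates by letters, whereas the columns are numbered without a link to them. A replicate block was not run for this reason. Control week 5 in place of Control week 19 was not run because 5 columns bear its name and 4 samples are labelled, and what the extra column holds is unknown. The 2 columns of Recovery week 9, by contrast, are fewer than its 3 samples. Of 408 values of 32 fold changes under other settings, 363 kept their direction and their side of the threshold, 12 lost a call, 12 gained one and 21 changed sign. Of 768 values with 1 library left out, 729 kept both, 25 lost a call, 8 gained one and 6 changed sign. Taking the total without the 50 highest genes moved the median of all genes by -0.11 (HF week 5), -0.12 (HF week 3), 0.13 (Recovery week 7) and -0.18 (Recovery week 13) against control and by 0.13 in Recovery week 19 against HF week 5. The cause of the changes below was not tested.

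In HF week 5 against control, 1 member was called, but 0 with a pseudocount of 0.1, no filter, median centring, quantile normalization or the total without the 50 highest genes. The count was 2 at unadjusted p-values, 3 without the 3 libraries rich in atrial genes, and 0 to 1 with 1 library left out. The gene called was not always Jag1: relative to endothelial markers it was Jag2, lower (adjusted p = 0.0474), and without HF library 1 it was Dll4 (0.00197). In Recovery week 19 against HF week 5 it was 1, but 0 with no filter, median centring, the total without the 50 highest genes or only the groups compared. It was 2 with GC and length trends removed, without HF week 3 or without the 3 atrial-rich libraries, 3 at unadjusted p-values, and 0 to 2 with 1 library left out, and relative to endothelial markers the 1 gene called was Jag2, higher (0.0314), and not Dll4. For HF week 3 it was 1, but 4 relative to endothelial markers, 2 with trends removed, 0 with only the groups compared, and 1 to 2 with 1 library left out. Without HF week 3 library 1 the gene called was Jag1 (0.0286) and not Notch4 (0.460). At unadjusted p-values it was 2 instead of 0 for Recovery week 11 and 5 instead of 0 for Recovery week 13. Recovery week 11 had 1 without the atrial-rich libraries, and Recovery week 13 had 2 with only the groups compared. The F test called 4 members, 1 relative to endothelial markers or to the total without the 50 highest genes, and 2 to 7 with 1 library left out. No member was called in Recovery weeks 7, 9 or 19 against control under any alternative run.

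Relative to endothelial markers the sign turned in HF week 5 against control for Notch1 (-0.057), Notch2 (-0.22), Hey1 (-0.017) and Hes1 (-0.053), in Recovery week 19 against HF week 5 for Notch1 (0.21), Notch2 (0.18), Hey1 (0.013), Heyl (0.13) and Hes1 (0.051), and in HF week 3 against control for Dll4 (-0.11) and Jag1 (-0.055). Quantile normalization turned Notch2 in HF week 5 (-0.038) and, in Recovery week 19 against HF week 5, Notch1 (0.011) and Notch2 (0.047). The total without the 50 highest genes turned Notch1 (0.078) and Notch2 (0.033) there, and median centring turned Notch1 (0.0028). Without the 3 atrial-rich libraries Notch3 (0.036) and Hey1 (-0.039) turned in HF week 5 and Notch1 (0.0017) and Hey1 (0.087) in Recovery week 19 against HF week 5. With 1 library left out, the fold change in HF week 5 ran from -0.51 to 0.036 for Notch3 and from -0.039 to 0.56 for Hey1, and in Recovery week 19 against HF week 5 from -0.18 to 0.095 for Notch1, from -0.51 to 0.087 for Hey1 and from -0.31 to 0.10 for Heyl.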
